A study of Mus musculus with 12 samples.

Results

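Public alpha chains are T cell receptor (TCR) alpha chains that recur in many individuals. Here they were productive TRA rearrangements whose best V segment, best J segment and CDR3 amino acid sequence were identical and which had at least 1 read in at least 10 of 12 thymocyte libraries. The rule kept 344 of 102195 different productive alpha chains, or 0.337%. Not all of them were found in every library: 76 were found in all 12 libraries, 112 in 11 and 156 in 10. The rule used the reads of these libraries, so the number of libraries, the reads and the shares of the chains are descriptions without a test.

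As background, a TCR alpha chain is made in the developing thymocyte by joining 1 of many V segments to 1 of many J segments, and the joint forms the CDR3, the loop that contacts peptide and MHC. Nucleases trim the segment ends, palindromic bases can remain where a hairpin end is opened off centre, and the enzyme TdT adds nucleotides without a template. A joint that needs few or no added nucleotides can form again in different cells, and several nucleotide joints can encode the same protein, which is called convergent recombination. CD4 single-positive (CD4SP) thymocytes are selected on MHC class II and CD8 single-positive (CD8SP) thymocytes on MHC class I. Some innate-like T cells carry nearly fixed alpha chains, among them invariant NKT cells with a TRAV11 to TRAJ18 join, which recognise lipids on CD1d, and MAIT cells with a TRAV1 to TRAJ33 join, which recognise vitamin metabolites on MR1.

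The thymocytes came from wild-type (WT) mice and mice without Chrna9, the gene of the nicotinic acetylcholine receptor subunit alpha 9, and were sorted as CD4SP or CD8SP cells. Each of the 4 groups had 3 libraries, and the 6 mice formed 2 male pairs and 1 female pair of a WT and a knockout mouse, with 1000000 CD4SP cells and 330000 CD8SP cells per sample. The replicate number was taken to link the CD4SP and CD8SP library of a mouse and the mice of a pair. No source used here gave the strain, the age or the design of the knockout allele. Rearranged receptor reads say nothing of Chrna9 expression, and the genotype labels were therefore not checked. The sort used CD4 and CD8 only, so either gate could hold innate-like T cells.

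The libraries held 19847 to 33885 reads of productive TRA rearrangements. Reads are not molecules, so a share of reads reflects cells, RNA per cell and amplification together, which cannot be told apart here. Pairs of libraries had 5.81% to 11.4% of their nucleotide clonotypes in common, so none looked like a second deposit of another. In 30.4% to 44.2% of productive reads a second V segment scored as well as the best one, because mouse TRAV segments have near-identical copies. Joins of TRDV to TRDJ, the mark of gamma delta T cells, had 0 to 2 reads per library.

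The joints of 7 public chains are shown first because they cover the range of joints found. Each line gives the CDR3 of the most-read nucleotide form, 5′ to 3′ from the conserved cysteine codon to the conserved phenylalanine or tryptophan codon, and capitals mark bases that belong to neither germline segment.
TRAV14N-3 TRAJ22: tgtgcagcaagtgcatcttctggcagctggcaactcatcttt
TRAV7-2 TRAJ9: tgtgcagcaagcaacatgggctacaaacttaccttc
TRAV16N TRAJ30: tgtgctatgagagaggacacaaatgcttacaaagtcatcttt
TRAV1 TRAJ33: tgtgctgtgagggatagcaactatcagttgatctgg
TRAV7-2 TRAJ22: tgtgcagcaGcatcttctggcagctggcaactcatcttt
TRAV7-2 TRAJ15: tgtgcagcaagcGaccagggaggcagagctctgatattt
TRAV7-2 TRAJ37: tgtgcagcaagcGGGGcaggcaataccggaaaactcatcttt
The first 4 joints had no base in capitals. In TRAV14N-3 TRAJ22 the untrimmed V and J ends met, with 0 bases shared and 0 bases between them. In TRAV7-2 TRAJ9 the V and J ends had 4 bases in common, in TRAV1 TRAJ33 they had 3, and in TRAV16N TRAJ30 they had 1. The single capital of TRAV7-2 TRAJ22, which encodes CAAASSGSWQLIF, is a palindromic base of the J end, and the single capital of TRAV7-2 TRAJ15 and the 4 capitals of TRAV7-2 TRAJ37 are added nucleotides.

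Different nucleotide joints of 1 protein are shown for the invariant NKT chain and for a TRAV16N TRAJ22 chain. Capitals here mark the bases that differ from the most-read form of the same chain.
TRAV11 TRAJ18, form 1: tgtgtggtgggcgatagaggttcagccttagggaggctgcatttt
TRAV11 TRAJ18, form 2: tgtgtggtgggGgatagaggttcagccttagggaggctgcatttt
TRAV11 TRAJ18, form 3: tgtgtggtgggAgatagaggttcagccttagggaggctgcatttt
TRAV11 TRAJ18, form 4: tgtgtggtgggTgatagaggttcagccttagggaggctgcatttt
TRAV16N TRAJ22, form 1: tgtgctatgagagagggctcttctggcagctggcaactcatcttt
TRAV16N TRAJ22, form 2: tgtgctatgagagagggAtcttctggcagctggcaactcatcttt
The 4 forms of the invariant chain differed at 1 base, the last position of a glycine codon, and held 42.9%, 25.2%, 17.5% and 13% of its reads. The TRAV16N TRAJ22 forms also differed at the last position of a glycine codon and held 47.3% and 41.6% of that chain's reads.

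Most alpha chains were found in a single library. Of the 102195 chains, 80832 were found in 1 library, 15957 in 2 to 3, 4025 in 4 to 6, 1037 in 7 to 9 and 344 in 10 to 12. The public chains had 20 to 9799 reads over all libraries, with a median of 65, and 150 of them averaged fewer than 5 reads per library. Just outside the rule, 224 chains were found in 9 libraries, with a median of 41 reads, against a median of 52 reads for the 156 chains found in 10. Each library held 285 to 322 of the public chains, and 275 to 309 of them after every library was thinned to 19847 reads. Absences were spread over both cell types: 105 public chains were missing from CD4SP libraries only, 104 from CD8SP libraries only and 59 from both. By the same rule 334 of 406405 beta chains were public, or 0.0822%.

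Public chains had few added nucleotides. The most-read nucleotide form had none in 267 of the 344 chains (77.6%), 1 in 40 chains, 2 in 21, 3 in 13, 4 in 2 and 6 in 1. Of the chains found in at most 9 libraries, 21.4% had none. The share without added nucleotides was 17.5% for chains found in 1 library, 31.7% for 2 to 3 libraries, 48.4% for 4 to 6 and 64.4% for 7 to 9. The share with at least 4 added nucleotides was 35.5%, 12.1%, 4.6% and 1.83% in the same order and 0.872% among public chains. At the edge of the rule the values hardly moved: 69.6% of the chains found in 9 libraries and 69.2% of those found in 10 had none, against 85.5% of those found in 12.

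**Figure D1:**
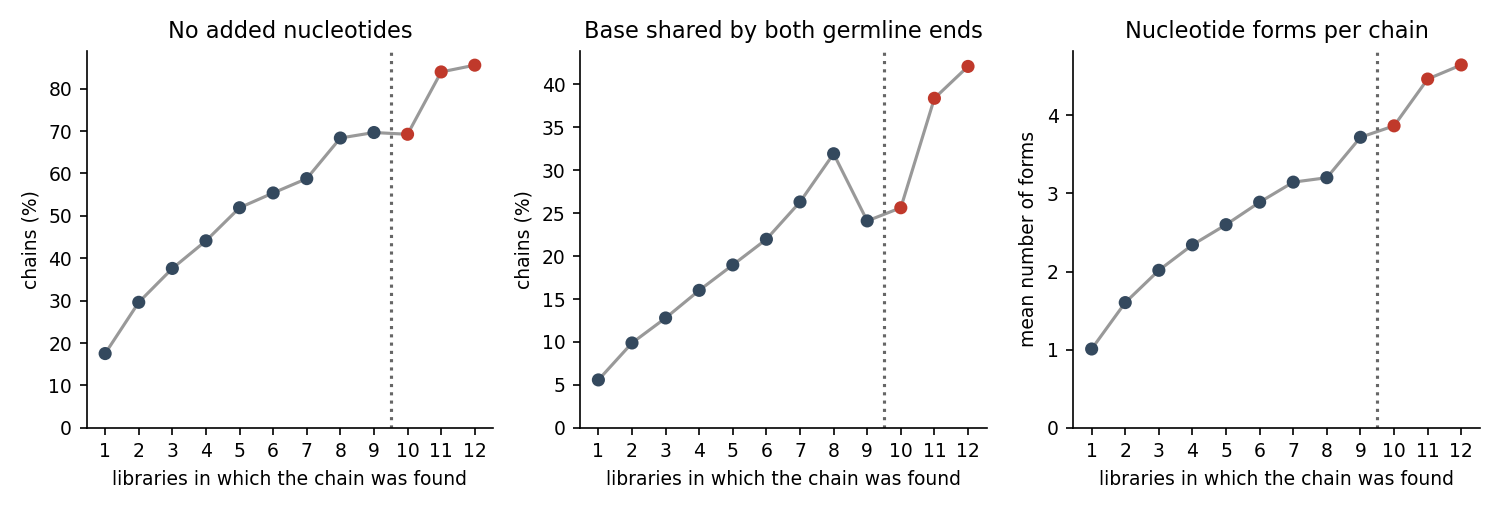
Percent of alpha chains without added nucleotides (left), percent whose germline V and J ends have at least 1 base in common at the joint (middle) and mean number of nucleotide forms per chain (right), by the number of libraries in which a chain was found; red points are the public chains and the dotted line is the rule. Chains without added nucleotides went from 17.5% at 1 library to 85.5% at 12, and mean forms from 1.01 to 4.64.

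The same held for reads within each library. In CD4SP libraries 67.2% to 70.8% of public reads, and in CD8SP libraries 76.9% to 82.9%, came from nucleotide clonotypes without added nucleotides. Without the invariant NKT chain, of which forms 2 and 4 each hold 1 added nucleotide, the ranges were 73.4% to 76.8% in CD4SP and 77.1% to 83.0% in CD8SP. Reads of all other productive chains without added nucleotides were 31.2% to 33.4% in the 12 libraries, so the public and other ranges did not overlap.

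The germline ends were also less trimmed in public chains. A mean of 1.16 bases had been removed from the J end of public chains and 1.18 from the V end, against 3.05 and 2.27 in the other chains. In those of the other chains that were found in 7 to 9 libraries, the means were 1.82 and 1.31. Both ends were untrimmed in 78 public chains (22.7%), in 5.96% of the others and in 12.9% of those found in 7 to 9 libraries. At the joint, the V and J germline ends had at least 1 base in common in 115 public chains (33.4%) and in 7.09% of the others, and at least 3 bases in 31 public chains (9.01%) and in 1.74% of the others. In a further 111 public chains (32.3%) the germline ends met exactly, as in 7.10% of the others. For chains found in 7 to 9 libraries these shares were 27.8%, 6.46% and 23.7%, in the same order. All bases between the germline ends were palindromic in 41 public chains (11.9%), in 7.25% of the others and in 12.9% of chains found in 7 to 9 libraries. The CDR3 of public chains had 10 to 16 residues, most often 13 (129 chains). It had 15 or more in 9.88% of public chains, against 21.4% of the other chains and 8.87% of chains found in 7 to 9 libraries.

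Most public proteins were encoded by several nucleotide joints. They had 1 to 10 nucleotide forms each, with a median of 4, and 12 had a single form. The most-read form held a median of 73.1% of a chain's reads, from 21.3% to 100%. The most widespread form of a chain was itself found in at least 10 libraries for 169 chains (49.1%), and in all 12 for 39. The other 175 chains reached 10 libraries only when their forms were combined. More reads give more forms, so forms were also counted at similar reads within a library. Equal reads need not come from equal numbers of cells, and the rule itself chose chains that recur, so these counts are a description. At 2 reads in a library, at least 2 forms were seen in 8.77% ± 6.46 of public chains and 2.27% ± 0.904 of other chains (mean ± SD, n = 12 libraries). Where a chain had 3 to 4 reads in a library, at least 2 forms were seen in 25% ± 6.67 of public chains and 10.6% ± 3.94 of other chains. At 5 to 10 reads the shares were 49.1% ± 6.87 and 34.0% ± 8.73.

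The TRAV7-2 TRAJ22 chain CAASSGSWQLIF had the most forms, 10. Its most-read form held 80.6% of 129 reads, was found in 11 libraries, and had V and J ends with 2 bases in common. The other chains with the most forms had 9 each: the invariant NKT chain, TRAV14N-3 TRAJ22 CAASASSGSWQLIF, TRAV7-2 TRAJ22 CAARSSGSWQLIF and a TRAV16N TRAJ23 chain. Sequencing errors can add minor forms, and their part was not tested: the median fell to 3 when a form had to be found in at least 2 libraries.

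V segment use was uneven. Public chains used 31 of the 99 V segments seen, and the TRAV7 family alone held 198 of them (57.6%), against 28% of all alpha chains. TRAV7-2, on chromosome 14 at 53390633 to 53391136 of mm10, was the V segment of 102 public chains, or 29.7%, against 7.43% of all chains. TRAV7-5 (53530786 to 53531313) had 69 public chains, TRAV16N (53351090 to 53351621) had 40, TRAV6-6 (53516929 to 53517366) had 31 and TRAV7D-5 (52835861 to 52836387) had 18. Among nonproductive joins, which encode no receptor and are not selected, TRAV7-2 made up 2.40% and the TRAV7 family 11.7% of clonotypes. TRAV16N made up 11.6% of public chains, 4.18% of all chains and 7.70% of nonproductive clonotypes. TRAV6-6 made up 9.01%, 3.82% and 9.99% in the same order. Reads of public TRAV7-2 chains scored equally for TRAV7D-2, those of TRAV6-6 for TRAV6D-6 and those of TRAV7D-5 for TRAV7N-5. These counts therefore belong to each pair of copies, and the coordinates are those of the copy named. Reads of public TRAV7-5 and TRAV16N chains had no tie.

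J segment use was also uneven. Public chains used 33 of 44 J segments. TRAJ22, at 54197248 to 54197307 of chromosome 14, was the J segment of 54 public chains (15.7%), against 4.84% of all chains and 5.92% of nonproductive clonotypes. TRAJ31 followed with 33, TRAJ12 and TRAJ23 with 28 each and TRAJ30 with 26. By position in the locus, 211 public chains (61.3%) used the middle segments TRAJ22 to TRAJ41, which made up 47.4% of all chains. The segments nearest the V side, TRAJ42 to TRAJ61, were used by 19 public chains (5.52%) and by 19.5% of all chains, and the segments nearest the C side, TRAJ1 to TRAJ21, by 33.1% of both.

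The public chains fell on 163 V and J pairs. These were 4.81% of the 3391 pairs seen, and they held 23.3% of nonproductive clonotypes and 30.7% of the productive clonotypes of other chains. TRAV7-2 with TRAJ12, TRAJ23 and TRAJ31, and TRAV7-5 with TRAJ31, had 9 public chains each, followed by 8 each for TRAJ22 with TRAV16N, TRAV7-2 and TRAV7-5 and for TRAV7-2 with TRAJ37.

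**Figure D2:**
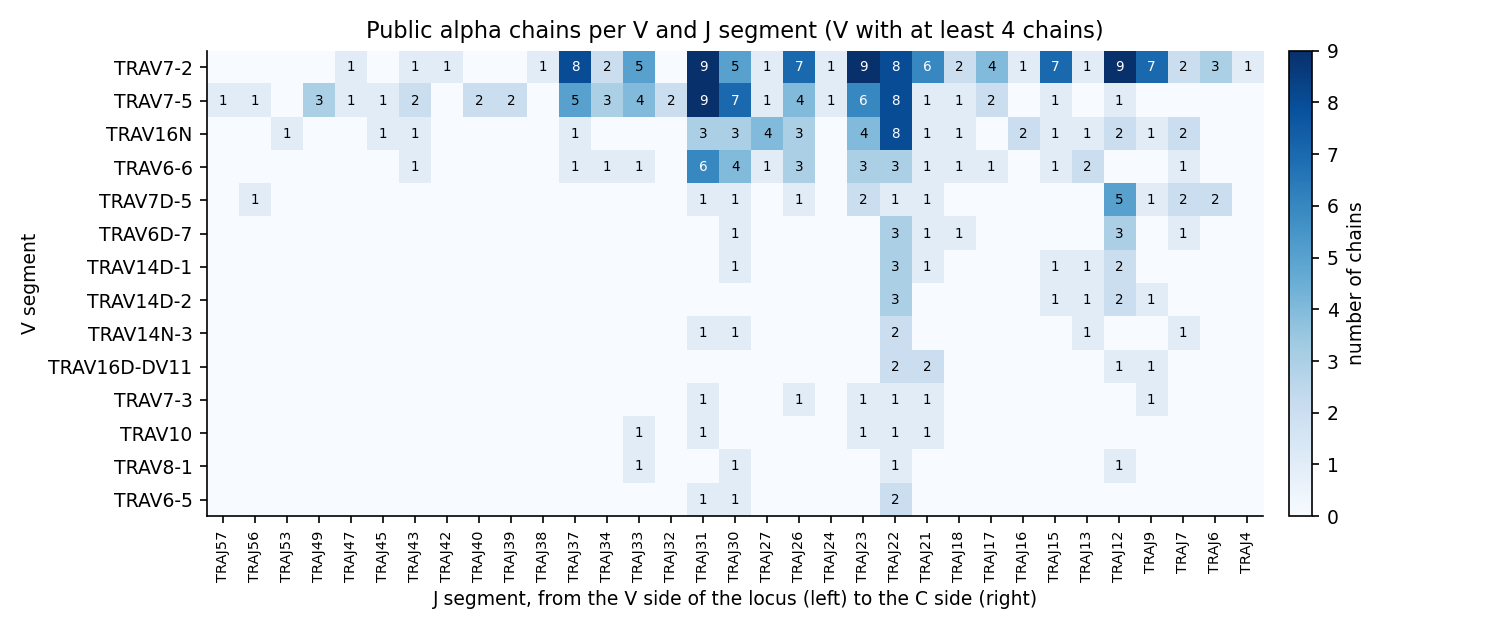
Number of public alpha chains for each V segment (rows, those with at least 4 public chains) and J segment (columns, ordered along the locus); colour and digits give the count. The TRAV7-2 row holds 102 chains and the TRAJ22 column is the fullest, with entries in all 14 rows shown.

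The same CDR3 often recurred on different V segments. The 344 chains had 281 distinct CDR3 sequences, and 42 of these were carried by more than 1 V segment, covering 105 chains. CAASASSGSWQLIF with TRAJ22 was carried by 6 best-hit TRAV14 segments, and its most-read nucleotide joint, the TRAV14N-3 TRAJ22 sequence above, was the same in all 6. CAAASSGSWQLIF with TRAJ22 was carried by 5 V segments.

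Public chains held 13.9% to 16.6% of productive TRA reads in CD4SP libraries (15.2% ± 0.913, SD, n = 6) and 9.67% to 10.6% in CD8SP libraries (10.05% ± 0.370, n = 6). With TRAV11 TRAJ18 joins left out, the shares were 9.27% to 10.1% and 9.65% to 10.6%, and the ranges overlapped. With each nucleotide clonotype counted once, public chains held 3.97% to 4.47% and 3.88% to 4.22%.

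By mean share, the 10 largest public chains were the invariant NKT chain, the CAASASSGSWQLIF chains of TRAV14N-3, TRAV14D-2, TRAV14D-1 and TRAV14-2, a pair of TRAV16N TRAJ22 chains, TRAV7-2 TRAJ22 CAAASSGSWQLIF, TRAV7-2 TRAJ9 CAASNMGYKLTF and TRAV6-6 TRAJ30 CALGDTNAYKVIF. The invariant chain held 6.29% ± 1.08 of CD4SP reads, and the next, TRAV14N-3 TRAJ22, held 0.378% ± 0.0576 of CD8SP reads (SD, n = 6). TRAV7-2 TRAJ9 had 21, 39 and 24 reads in WT CD4SP, 48, 39 and 21 in knockout CD4SP, 46, 39 and 84 in WT CD8SP and 58, 45 and 74 in knockout CD8SP. Its groups overlapped, and it was not called between the cell types (log2 difference CD4SP over CD8SP −0.59, SE 0.37, edgeR adjusted p = 0.436). TRAV6-6 TRAJ30, whose V and J ends had 3 bases in common, was also not called (log2 difference −0.35, SE 0.44, edgeR adjusted p = 0.72).

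**Figure D3:**
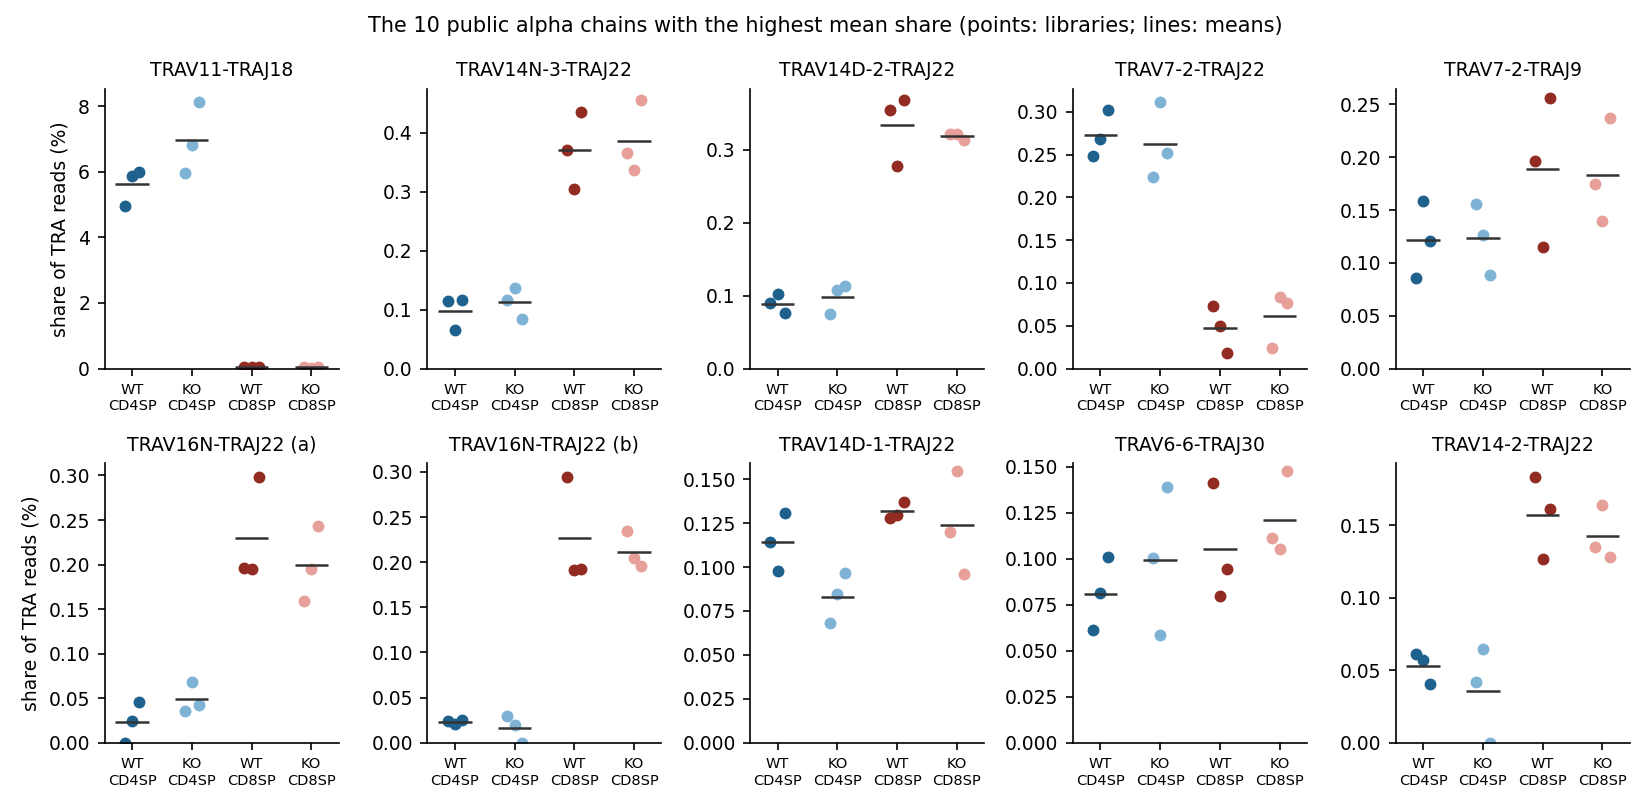
Share of productive TRA reads (%) in each library for the 10 public chains with the highest mean share; points are libraries, lines are means of 3, and the vertical scales differ. TRAV16N-TRAJ22 (a) is the chain whose CDR3 begins CAMREGSS and (b) the one that begins CAMREASS. The TRAV11-TRAJ18 chain lies at 6.29% in CD4SP on average, and the TRAV16N-TRAJ22 chains lie near 0.2% in CD8SP.

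Reads per alpha chain were compared between CD4SP and CD8SP libraries with edgeR's quasi-likelihood test, with the mouse as a block. All 344 public chains were among the 4611 chains tested. At an adjusted p under 0.05, 17 public chains were higher in CD4SP and 20 were lower, together 10.8% of them, against 4.12% of all chains tested (2.28% higher and 1.84% lower). Each of the 37 differed in the same direction in 6 of 6 mice, by 1.91 to 7.18 on the log2 scale for the chains higher in CD4SP and by 1.51 to 4.61 for those lower. Calls depended on reads: among public chains with at least 80 and under 160 reads 12 of 87 were called (13.8%), and with at least 160 reads 25 of 45 (55.6%). Among other chains 41 of 47 were called in the first of these ranges (87.2%) and 10 of 10 in the second (100%). With at least 40 and under 80 reads, 0% of public and 25.5% of other chains were called. With at least 20 and under 40 reads the shares were 0% and 3.55%. The higher share of calls over all public chains was therefore not seen at similar reads, where public chains were called less often. The rule, however, asks a public chain to be found in at least 4 libraries of each cell type, which keeps chains confined to 1 cell type out. The median log2 difference was −0.04 for public chains and −0.35 for all chains tested. The shares of the cell types did not overlap for 48 public chains (14%) and for 4.45% of all chains tested, values that were not split by reads. How the public share of calls compared with that of all chains depended on the setting. DESeq2 called 56 public chains (16.3%) and 3.93% of all chains tested. The fit without the mouse block called 61 (17.7%) against 16.8%, a share near that of all chains. On the 286 chains kept by filterByExpr, 63 of 158 public chains were called (39.9%), below the 58.7% of all chains kept.

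**Figure D4:**
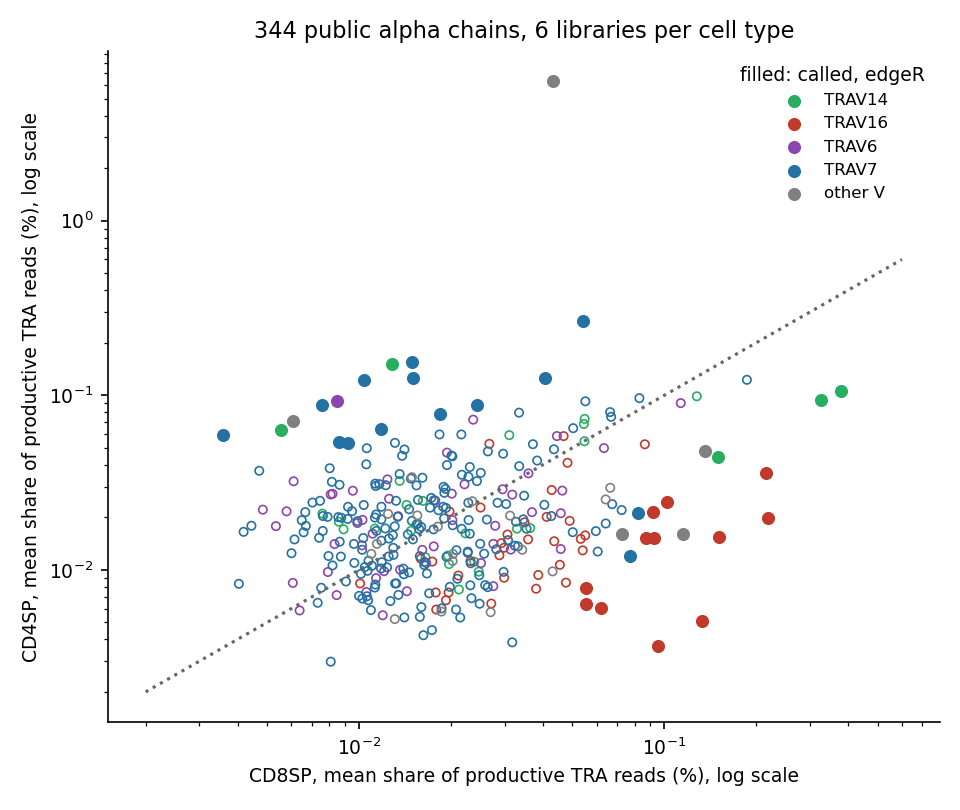
Mean share of productive TRA reads in CD4SP (vertical) against CD8SP (horizontal) for the 344 public alpha chains, n = 6 libraries per cell type, on log axes; colours are V families, filled points were called by edgeR, and the dotted line marks equal shares. The called TRAV7 chains lie mostly above the line, the 12 called TRAV16 chains lie below it, and the invariant NKT chain stands alone at the top.

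Public TRAV7-2 chains held a larger share of reads in CD4SP. Of the 102, 12 were called higher and 0 lower by edgeR, 75 had a positive log2 difference, and the median was 0.93. Their summed share was 3.67% ± 0.169 in CD4SP and 2.0% ± 0.149 in CD8SP, higher in CD4SP in 6 of 6 mice. Among the other TRAV7-2 chains, 44 of 716 tested were called higher and 0 lower, with a median of 1.40. Other chains can be confined to 1 cell type, which the rule bars for public chains, so these medians are not like for like. The largest TRAV7-2 chain, TRAJ22 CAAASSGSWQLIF, had 61, 66 and 60 reads in WT CD4SP, 69, 96 and 60 in knockout CD4SP, 17, 17 and 6 in WT CD8SP and 8, 27 and 24 in knockout CD8SP. All CD4SP libraries lay above all CD8SP libraries (log2 difference 2.45, SE 0.39, edgeR adjusted p = 6.36e-08). TRAV7-2 TRAJ22 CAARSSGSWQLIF had 29 to 47 reads per CD4SP library and 1 to 11 per CD8SP library (3.47, SE 0.54, edgeR adjusted p = 3.72e-08).

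TRAV7-2 TRAJ15 joins gave 2 of the 10 public chains with the largest CD4SP excess among those called. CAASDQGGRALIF, with 1 added nucleotide, had 31, 23 and 30 reads in WT CD4SP, 37, 43 and 25 in knockout CD4SP, 4, 10 and 0 in WT CD8SP and 1, 0 and 4 in knockout CD8SP (log2 difference 3.95, SE 0.64, edgeR adjusted p = 1.49e-07). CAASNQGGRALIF, with none, had 20 to 27 reads per CD4SP library and 0 to 9 per CD8SP library (3.91, edgeR adjusted p = 9.35e-06). These CDR3s differ at 1 residue, and neither chain's cell types overlapped. The TRAV7-2 TRAJ37 chain shown above, with 4 added guanines, had 11 to 21 reads per CD4SP library and 0 to 2 per CD8SP library (4.0, SE 0.85, edgeR adjusted p = 2.59e-04). TRAV7-2 TRAJ31 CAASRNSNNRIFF was 3.31 higher (edgeR adjusted p = 3.80e-06), and the same CDR3 on TRAV10 was 3.58 higher (edgeR adjusted p = 3.78e-04). The other named CD4SP-high chains were TRAV6-6 TRAJ34 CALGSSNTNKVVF (3.93, edgeR adjusted p = 6.72e-06), a TRAV14D-1 TRAJ13 chain described below and TRAV14N-3 TRAJ7 CAASDYSNNRLTL (3.59, edgeR adjusted p = 6.64e-04).

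Public TRAV16N chains held a smaller share of reads in CD4SP. Of the 40, 12 were called lower and 0 higher by edgeR, 37 had a negative log2 difference, and the median was −1.53. Their summed share was 0.706% ± 0.0670 in CD4SP and 2.32% ± 0.0999 in CD8SP, higher in CD8SP in 6 of 6 mice. The other TRAV16N chains had a median of −2.38, with 31 of 409 called lower and 2 higher, a comparison with the same limit as for TRAV7-2. The TRAV16N TRAJ22 chain whose CDR3 begins CAMREASS had 6, 5 and 5 reads in WT CD4SP, 9, 6 and 0 in knockout CD4SP, 69, 65 and 63 in WT CD8SP and 78, 66 and 61 in knockout CD8SP (log2 difference −3.56, SE 0.47, edgeR adjusted p = 2.68e-11). The one that begins CAMREGSS, whose forms are shown above, had 0 to 21 reads per CD4SP library and 46 to 98 per CD8SP library (−2.77, SE 0.45, edgeR adjusted p = 1.34e-07). For neither chain did the cell types overlap.

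TRAV16N also gave 8 of the 10 public chains with the largest CD8SP excess among those called. The largest was TRAV16N TRAJ45, with 0 to 2 reads per CD4SP library and 12 to 38 per CD8SP library (log2 difference −4.61, SE 0.76, edgeR adjusted p = 2.30e-07). TRAV16N TRAJ30 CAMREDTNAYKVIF had 0 to 9 reads per CD4SP library and 30 to 61 per CD8SP library (−3.39, edgeR adjusted p = 1.43e-07), and a TRAV16N TRAJ30 chain longer by 1 glycine had 0 to 3 and 19 to 58 (−4.59, edgeR adjusted p = 1.03e-09). TRAV16N joins to TRAJ12, TRAJ26, TRAJ27 and a further TRAJ22 CDR3 were lower by 3.02 to 3.29 on the log2 scale. The TRAJ27 chain lost its call without knockout mouse 1 (−2.84) or 3 (−2.83), and this TRAJ22 chain without knockout mouse 2 (−2.70) or WT mouse 1 (−3.0). The other 2 called chains were TRAV12D-3 TRAJ23 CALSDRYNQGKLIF (−2.87, edgeR adjusted p = 9.10e-05) and TRAV7-3 TRAJ9 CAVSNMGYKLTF (−2.99, edgeR adjusted p = 0.00238), whose V and J ends had 4 bases in common. TRAV7-2 TRAJ47 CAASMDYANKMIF, chosen after its values were seen, differed by more than some of these (−3.05, SE 1.05) and was not called (edgeR adjusted p = 0.0734).

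Public TRAV14 chains differed in direction. The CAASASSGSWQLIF join to TRAJ22 was summed over its 6 best-hit TRAV14 segments, which had 96 to 153 reads per CD4SP library and 270 to 401 per CD8SP library. It held 0.465% ± 0.0481 of CD4SP reads and 1.09% ± 0.0914 of CD8SP reads, and the ranges did not overlap. The other 22 public TRAV14 chains together held 0.651% ± 0.0688 and 0.432% ± 0.0792. Among single best-hit segments, TRAV14N-3 had 28, 16 and 23 reads in WT CD4SP and 36, 42 and 20 in knockout CD4SP. In CD8SP it had 87, 103 and 143 reads in WT and 122, 109 and 142 in knockout (log2 difference −1.86, SE 0.31, edgeR adjusted p = 4.04e-07). TRAV14D-2 (−1.80, edgeR adjusted p = 6.44e-06) and TRAV14-2 (−1.96, edgeR adjusted p = 0.00279) were also lower in CD4SP. TRAV14D-1 (−0.39, edgeR adjusted p = 0.666), TRAV14-1 (−0.02, edgeR adjusted p = 0.992) and TRAV14D-3-DV8 (0.58, edgeR adjusted p = 0.633) were not called; the last 2 were added because they carry this CDR3. Differences between these segments were not tested. Reads of public TRAV14D-1 and TRAV14D-2 chains scored equally for TRAV14N-1 and TRAV14N-2, so these best hits each stand for a pair of copies.

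A TRAV14D-1 TRAJ13 chain went the other way, with 27 to 48 reads per CD4SP library and 0 to 9 per CD8SP library (log2 difference 3.74, SE 0.56, edgeR adjusted p = 1.06e-08). The same CDR3 on TRAV14D-2 (0.99, edgeR adjusted p = 0.50) and TRAV14N-3 (0.41, edgeR adjusted p = 0.731), chosen after their values were seen, was not called. As a family, the 28 public TRAV14 chains had a median of 0.02, with 2 called higher and 3 lower. Other TRAV14 chains had a median of 1.25, with 21 of 454 called higher and 2 lower. As for TRAV7-2, the rule keeps chains confined to 1 cell type out of the public set, so these medians are not like for like. In summed shares, public TRAV14D-2 chains held 0.244% ± 0.0521 of CD4SP and 0.476% ± 0.0251 of CD8SP reads, while other TRAV14D-2 chains held 1.85% ± 0.0701 and 1.11% ± 0.141. Of the public sums, the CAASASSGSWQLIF chain of TRAV14D-2 alone held 0.0937% and 0.326%. Public TRAV14N-3 chains held 0.310% of CD4SP and 0.504% of CD8SP reads, of which its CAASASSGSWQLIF chain alone held 0.105% and 0.378%.

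**Figure D5:**
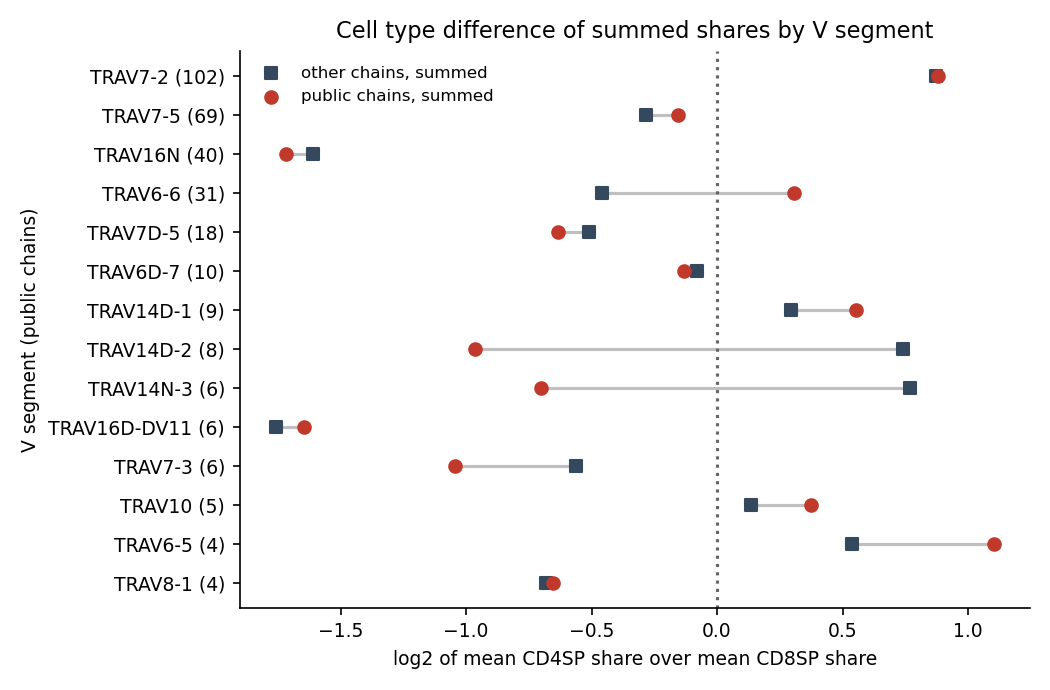
Log2 ratio of the mean summed share in CD4SP over CD8SP (n = 6 libraries each) for public chains (circles) and all other chains (squares) of each V segment with at least 4 public chains; the number of public chains is in parentheses. Both marks of TRAV7-2 lie at 0.87 to 0.88, whereas TRAV14D-2, TRAV14N-3 and TRAV6-6 have their marks on opposite sides of 0. The public sums of TRAV14D-2 and TRAV14N-3 include the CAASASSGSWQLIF chain, which alone held 0.326% and 0.378% of CD8SP reads. Of the 31 public TRAV6-6 chains, 15 had a positive and 16 a negative log2 difference. The rule keeps chains confined to 1 cell type out of the public sums only.

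TRAV6-6 public chains together held 0.831% ± 0.0903 of CD4SP and 0.672% ± 0.0528 of CD8SP reads, higher in CD4SP in 5 of 6 mice. Single chains went both ways: of the 31, 15 had a positive and 16 a negative log2 difference, with a median of −0.007. The 1 called by edgeR, TRAJ34 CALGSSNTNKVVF, alone held 0.0930% and 0.00846%. Other TRAV6-6 chains together held 3.02% ± 0.282 of CD4SP and 4.16% ± 0.141 of CD8SP reads, lower in CD4SP in 6 of 6. Of the 69 public TRAV7-5 chains, 0 were called in either direction by edgeR and the median log2 difference was −0.15. Public chains with TRAJ22 differed by V segment: 8 TRAV7-2 chains summed to 0.659% ± 0.0480 in CD4SP and 0.163% ± 0.0340 in CD8SP, 8 TRAV16N chains to 0.131% ± 0.0284 and 0.706% ± 0.0629, and 8 TRAV7-5 chains to 0.183% ± 0.0606 and 0.157% ± 0.0535.

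The invariant NKT chain was the most unequal public chain. It had 1213, 1446 and 1192 reads in WT CD4SP, 1839, 2100 and 1929 in knockout CD4SP, 12, 15 and 13 in WT CD8SP and 12, 10 and 18 in knockout CD8SP. Its mean share was 6.29% ± 1.08 in CD4SP libraries against 0.0433% ± 0.00990 in CD8SP libraries (n = 6 each), a log2 difference of 7.18 (SE 0.11), called by edgeR. This SE, derived from the F statistic, is smaller than the counting error of the chain's 80 CD8SP reads and overstates the precision. Its reads scored equally for TRAV11 and TRAV11D. The MAIT chain TRAV1 TRAJ33 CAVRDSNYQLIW was found in 10 libraries with 43 reads, 42 of them in the form shown above, and had 0 to 6 reads per library. It was not called between the cell types (log2 difference 0.33, SE 1.15, edgeR adjusted p = 0.916). No join of TRAV10 to TRAJ50, the alpha chain of a further NKT subset, was public.

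In the main edgeR fit, no public chain was called between Chrna9 knockout and WT. In CD4SP, 0 of 344 were called by edgeR without scaling and 5 had an unadjusted p under 0.05, against 0% of the 4611 chains called. In CD8SP, 0 were called (2 at an unadjusted p under 0.05), also against 0%, and the difference between the genotype effects of the cell types gave 0 (3 at an unadjusted p under 0.05), again against 0%. With TMM scaling edgeR called the invariant NKT chain in CD4SP (log2 difference 0.40, adjusted p = 4.96e-04), the single chain of the 4611 called (0.0217%). DESeq2 called 0 public chains in each, with 10, 8 and 3 at an unadjusted p under 0.05. Over all chains it called 79 in CD4SP (1.71%), 74 in CD8SP (1.6%) and 0 for the difference between the effects (0%). The 3 mice per genotype and the median of 65 reads per chain limit which differences could be called, large ones included. The smallest p in CD4SP was that of the invariant NKT chain, at 5.61% ± 0.577 of WT and 6.97% ± 1.08 of knockout reads (SD, n = 3). Its log2 difference was 0.31 (SE 0.10, edgeR adjusted p = 1). Next came TRAV16N TRAJ22 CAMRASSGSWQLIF, with 12, 9 and 7 reads in WT and 0, 8 and 0 in knockout CD4SP (−2.45, SE 0.87, edgeR adjusted p = 1), and a TRAV16N TRAJ37 chain with 6, 4 and 4 against 0, 1 and 0. In CD8SP the smallest were TRAV7-2 TRAJ26 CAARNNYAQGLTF, with 4, 8 and 15 reads in WT and 0, 0 and 5 in knockout, TRAV8-1 TRAJ22 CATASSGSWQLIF, with 0, 0 and 3 against 6, 5 and 10, and TRAV7-2 TRAJ15 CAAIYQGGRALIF, with 0, 3 and 12 against 1, 0 and 1. All 6 had an adjusted p of 1, and for the invariant NKT chain and TRAV7-2 TRAJ15 the shares of the genotypes overlapped.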

How the data were processed

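TCR libraries of 12 sorted thymocyte samples (4 groups, 3 libraries each) were prepared with a SMARTer kit and read on a MiSeq, per the labels. Clonotypes were assembled with MiXCR, per the series design text, on mm10, per the submitters' processing notes; no source used here gave its version. Each deposited value is a count of reads of 1 nucleotide clonotype, without molecular identifiers, per the file headers. The SDs and standard errors are therefore those of reads, not of molecules or cells. Segments are best hits without the allele. Added nucleotides are bases between the V and J ends of the deposited reference points, which count palindromic bases with the segment; germline ends leave those out. Segment coordinates are those of RefSeq (GRCm38.p6), which matched 143 of 143 segments. Chains with at least 10 reads in total were tested with edgeR 4.0.16 (R 4.3.3), library size being productive TRA reads, with p adjusted by Benjamini-Hochberg over 4611 chains and a threshold of 0.05; the standard error is the log2 difference divided by the square root of F. Genotype contrasts used the replicate number as a block, since the design text names pairs of mice; deviations of paired libraries correlated at −0.06 to 0.07. The fits were tested on simulated data. DESeq2 1.42.0 and other settings were alternatives. Members, lists and named chains (10 by share, 10 per direction, 5 by forms, 3 per genotype contrast, and marker joins) were chosen with earlier results of these data known. P-values of fits with the mouse as a block rest on how the difference between CD4SP and CD8SP varied over these mice. Those of the genotype contrasts rest on the spread of the 12 libraries around group and replicate number, with no term for the mouse.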

Additional observations from a re-analysis of the deposited data

Results flagged for a closer look

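Shares of named public chains were screened for a single library far from the other 5 of its cell type (Dixon's test, 95% level). Of 80 sets tested, 8 were marked, and chance marks about 1 in 20. In CD4SP, the TRAV16N TRAJ22 chain that begins CAMREASS was at 0% of productive TRA reads in knockout library 3, against 0.0195% to 0.0292% in the others. TRAV7-2 TRAJ22 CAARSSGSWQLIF was at 0.179% in WT CD4SP library 1, against 0.146% to 0.153%. TRAV16N TRAJ12 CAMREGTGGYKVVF was at 0.0551% in knockout CD4SP library 1, against 0% to 0.0195%. In CD8SP, TRAV6-6 TRAJ34 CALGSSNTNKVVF was at 0.0325% in WT library 2, against 0% to 0.00901%, and TRAV16N TRAJ45 was at 0.0354% in the same library, against 0.0865% to 0.115%. TRAV7-2 TRAJ15 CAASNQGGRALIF was at 0.0274% in WT CD8SP library 3, against 0% to 0.00885%, and TRAV7-2 TRAJ15 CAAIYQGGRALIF was at 0.0366% in that library, against 0% to 0.00885%. TRAV16N TRAJ26 was at 0.0210% in knockout CD8SP library 1, against 0.0598% to 0.0767%. Causes were not tested.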

How the results depend on the processing

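The number of public chains depended on the rule: 568 chains were found in at least 9 libraries, 188 in at least 11 and 76 in all 12, 201 with at least 2 reads per library, 661 with V grouped by family number, and 386 to 414 when each library was left out and 9 of 11 were asked for. Public chains held 9.55% of CD4SP reads without TRAV11 TRAJ18 joins, and 4.15% (CD4SP) and 4.03% (CD8SP) with each nucleotide clonotype counted once. The share without added nucleotides was 49.6% over all nucleotide forms, 84.7% without chains with tied V hits, and 65.7% with palindromic bases counted as added, a setting chosen after seeing the data. Calls of public chains between CD4SP and CD8SP were 56 with DESeq2 (181 over all chains tested), 63 with filterByExpr (168), 77 of 661 with V grouped by family (11.6%, against 4.47% of all) and 61 without the replicate block (the mouse; 775), where all 37 calls remained; leaving out each mouse gave 30 to 33. For Chrna9 knockout against WT in CD4SP, TMM scaling called 1 public chain, the invariant NKT chain, at a log2 difference of 0.40; without the replicate block 0 were called, as with it. Of named chains called between the cell types, 4 lost the call when 1 mouse was left out: TRAV16N TRAJ27, the TRAV16N TRAJ22 chain that begins CAMREGAS, TRAV16N TRAJ22 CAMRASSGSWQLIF (−2.04 without knockout mouse 1) and TRAV7-2 TRAJ15 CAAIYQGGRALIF (2.78 without knockout mouse 2). Direction was followed for the named chains called between the cell types and for those with the smallest p in each genotype contrast. None of these changed direction in the settings that gave a value. With V grouped by family number, only 3 of these results had a value. Other named chains were not followed. Causes were not tested. Low reads limit what could be called: 150 public chains averaged fewer than 5 reads per library.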

Other observations

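The invariant NKT chain had 9719 reads in CD4SP and 80 in CD8SP libraries, so few CD8SP reads fell on each nucleotide form. Form 1 had 4157 reads in CD4SP and 42 in CD8SP libraries, form 2 had 2444 and 22, form 3 had 1702 and 16, and form 4, which was found in all 6 CD4SP libraries, had 1275 and 0. The forms were chosen after their values were seen, and whether their proportions differed between the cell types was not tested.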
